A study of Mus musculus with 5 samples.

Results

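The 10 genes described here are basal keratins and other genes of stratified epithelium: Krt5, Krt14, Krt15, Krt6a, Krt6b, Krt17, Trp63, Sfn, Lgals7 and Dsg3. They were chosen by gene symbol and all 10 were found among the 38918 features of the deposited table of normalised values. RNA had been sequenced in 5 libraries from mammary tumours of FVB mice that carry an SV40 transgene, taken at 20 weeks of age. The maternal BSp group had 3 libraries of tumours from offspring whose dams ate 26% broccoli sprouts (BSp) between conception and weaning, and the control group had 2 libraries of tumours from offspring of dams on the control diet. The offspring of both groups received no treatment themselves, and every mouse of both groups carries the transgene. SV40 transgenes encode T antigen, which binds and inactivates p53 and RB. The promoter that drives the transgene here, the litters and any pooling of animals are not given here. The genes were proposed with the difference between maternal BSp and control in view, so that difference is described for them and not tested.

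Keratins are the intermediate filaments of epithelial cells, and each filament is built from pairs of 1 type I and 1 type II keratin. In the mammary duct, Krt5 (type II) and Krt14 (type I) mark the basal layer next to the stroma, while the luminal layer makes Krt8 and Krt18. The transcription factor p63, encoded by Trp63, is needed to form stratified epithelia and the basal mammary layer, and it activates keratin and adhesion genes. In bulk tumour RNA, fewer cells of a type and less RNA per cell cannot be told apart.

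Some of these genes resemble each other so closely that sequence decides which gene a read is counted for. The coding sequences of Krt6a and Krt6b, neighbours on chromosome 15, were identical at 97.8% of 1659 aligned bases in the GENCODE M21 transcripts (GRCm38), with a longest identical run of 280 bases. The stretch of 90 coding bases in which they differ most shows the kind of site a read must cover to tell them apart. It spans coding bases 787 to 876 counted from the start codon, in exon 4 of both genes (chr15:101692484-101692573 for Krt6a and chr15:101678303-101678392 for Krt6b, minus strand), and capitals mark the 12 bases that differ.
Krt6a: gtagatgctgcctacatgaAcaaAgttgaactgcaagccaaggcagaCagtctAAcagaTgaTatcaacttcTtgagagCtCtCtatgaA
Krt6b: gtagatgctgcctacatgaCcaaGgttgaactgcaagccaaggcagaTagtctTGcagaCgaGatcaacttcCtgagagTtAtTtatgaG
Of all 50-base windows in the annotated transcripts, 45.7% for Krt6a and 50.1% for Krt6b also occur in another gene. The share was 15.03% for Sfn, through pseudogenes, 13.9% for Krt14, mostly through Krt16, and 8.52% for Krt5. It was at most 3.99% for each of the other 5 genes.

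The promoters of Krt5 and Sfn are shown because these genes had every maternal BSp library below both controls. The RefSeq table (GRCm38.p6) held 4 of the 10 genes: Krt5, Krt14, Sfn and Lgals7. Each entry runs from 250 bases before to 50 bases after an annotated start, and the Krt14 entry starts inside the gene and is not shown. The Krt5 entry lies at chr15:101712856-101713155 and the Sfn entry at chr4:133602119-133602418, both on the minus strand.
Krt5: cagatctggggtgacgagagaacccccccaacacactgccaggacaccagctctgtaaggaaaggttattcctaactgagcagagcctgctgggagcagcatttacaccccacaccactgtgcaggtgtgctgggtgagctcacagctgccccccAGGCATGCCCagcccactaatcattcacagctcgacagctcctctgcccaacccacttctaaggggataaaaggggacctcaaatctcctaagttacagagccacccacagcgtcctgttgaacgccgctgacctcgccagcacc
Sfn: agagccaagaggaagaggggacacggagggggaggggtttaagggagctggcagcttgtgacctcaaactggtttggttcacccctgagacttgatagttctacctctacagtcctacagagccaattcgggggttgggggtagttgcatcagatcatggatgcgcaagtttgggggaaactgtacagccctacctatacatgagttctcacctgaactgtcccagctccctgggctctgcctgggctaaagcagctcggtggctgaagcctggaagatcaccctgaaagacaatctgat
Capitals mark the only match found, a p53 family half-site that begins 95 bases upstream of the Krt5 start. Both strands were searched for this half-site, for TATAAA, for the AP-1 site TGANTCA and for the AP-2 site GCCNNNGGC. Among 32851 promoters of the same length, 8.36% held the half-site, 13.6% TATAAA, 7.81% TGANTCA and 16.6% GCCNNNGGC. No match overlapped another.

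Values are reads per gene that the authors scaled to 1 common total, here called normalised reads. Recovered depth was 8459029 to 61663199 reads in maternal BSp and 1106813 to 3909583 in control, so depth and group cannot be told apart. Together the 10 genes took 0.204%, 0.191% and 0.0585% of reads in maternal BSp replicates 1, 2 and 3, against 0.419% and 0.269% in control replicates 1 and 2. Maternal BSp replicate 3 stood apart in most of these genes, and maternal BSp replicate 1 and control replicate 1 held salivary gland transcripts, so values without these libraries are given as well. Counting intervals are 95% Poisson intervals and cover counting error only. Group values are means ± SD with n = 3 maternal BSp and n = 2 control. A log2 difference is maternal BSp minus control on the log2(normalised reads + 1) scale with its limma standard error (SE), and it understates the change of low genes. The fit took the 9870 genes whose mean reached 10, among them 8 of the 10 genes. Krt15, with a mean of 7.06, and Krt6b, with a mean of 0.145, fell below that level. Dsg3 was the lowest of the 8, with a mean of 32.2.

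**Figure D1:**
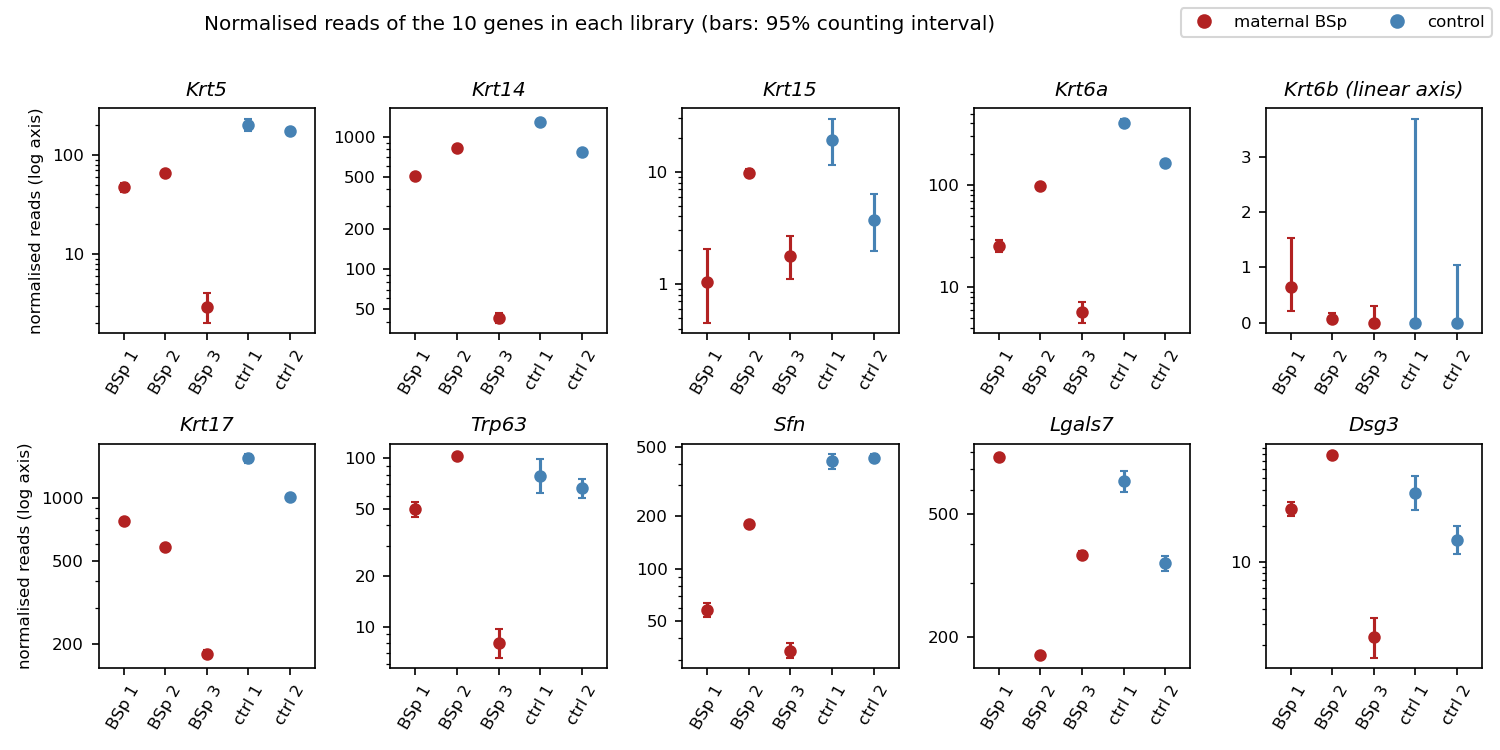
Normalised reads of each of the 10 genes (y axis, log scale except for Krt6b) in the 3 maternal BSp and 2 control libraries (x axis); points are libraries and bars are 95% counting intervals. Krt5, Krt6a, Krt17 and Sfn lie lower in every maternal BSp library than in either control, and replicate 3 of maternal BSp is the lowest library for 7 of the 8 genes whose mean reached 10.

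Of the basal keratins, Krt5 and Krt14 were lowest in maternal BSp replicate 3 and Krt15 in maternal BSp replicate 1. Krt5, the type II keratin of basal cells (chromosome 15, 101707070 to 101712898, minus strand), had 47.1, 65.8 and 2.89 normalised reads in maternal BSp replicates 1, 2 and 3 and 203 and 173 in control replicates 1 and 2. Every maternal BSp library lay below both controls. The means were 38.6 ± 32.3 in maternal BSp and 188 ± 21.2 in control, with a log2 difference of -3.02 (SE 1.06). The value of 2.89 rests on 36 reads, with a counting interval of 2.02 to 3.998, so the gap of 22.8-fold between the highest and lowest maternal BSp library is wider than counting error. The controls differed from each other by 1.17-fold.

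Krt14, the type I partner of Krt5 (chromosome 11, 100203162 to 100207548, minus strand), had 504, 822 and 42.9 normalised reads in maternal BSp and 1294 and 766 in control. Here the groups overlapped, since maternal BSp replicate 2 lay above control replicate 2. The means were 456 ± 392 in maternal BSp and 1030.2 ± 373 in control, with a log2 difference of -1.92 (SE 1.09). Krt15, a type I keratin of basal and progenitor cells (chromosome 11, 100131758 to 100135928, minus strand), was low everywhere, at 1.05, 9.80 and 1.76 in maternal BSp and 19 and 3.68 in control. These values rest on 8, 546 and 22 reads in maternal BSp and 19 and 13 reads in control, and the groups overlapped.

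The keratins Krt6a, Krt6b and Krt17 are induced in wounded or overgrowing epithelium, and Krt6 also marks mammary progenitor cells. Krt6a (type II, chromosome 15, 101689910 to 101694307, minus strand) had 25.5, 98.0 and 5.78 normalised reads in maternal BSp and 404 and 163 in control. All 3 maternal BSp libraries were below both controls, and the 2 controls themselves differed by 2.48-fold. The means were 43.1 ± 48.6 in maternal BSp and 283 ± 171 in control, and the log2 difference of -3.30 (SE 0.98) was the lowest of the 8 genes. Krt6b (chromosome 15, 101676023 to 101680287, minus strand) had 5, 4 and 0 reads in maternal BSp and 0 reads in both controls. The counting intervals of these counts of 0 reach up to 0.296 normalised reads in maternal BSp replicate 3 and up to 3.69 and 1.04 in control replicates 1 and 2, so no difference in Krt6b was detectable at this depth. How reads in the shared Krt6a and Krt6b sequence were counted is not known here.

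Krt17 (type I, chromosome 11, 100256217 to 100261029, minus strand) had 779, 585 and 179.7 normalised reads in maternal BSp and 1544 and 1014 in control. The groups did not overlap, and the drop in maternal BSp replicate 3 was shallower than for Krt5 or Krt14. The means were 515 ± 306 in maternal BSp and 1279 ± 375 in control, with a log2 difference of -1.52 (SE 0.62). The authors' deposited table holds 2447 rows, each with an unadjusted p under 0.05 between these groups. Among them are 2 of the 10 genes, Krt17 and Sfn, and the rows come to 6.29% of the 38918 features. Of these features, 19012 were at 0 in all 5 libraries, whereas each of the 10 genes had reads, so the share among detected features is larger. For Krt17 the authors' deposited table gives an unadjusted p of 0.0478. That table used a further group that is not analysed here.

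Trp63 (chromosome 16, 25683763 to 25892102, plus strand) had 49.9, 103 and 8.02 normalised reads in maternal BSp and 79 and 66.5 in control. The highest and the lowest library were both maternal BSp, so the groups overlapped. The means were 53.8 ± 47.8 in maternal BSp and 72.8 ± 8.82 in control, and the log2 difference was -1.02 (SE 0.88). Without maternal BSp replicate 3 it was -0.01.

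Sfn encodes stratifin (14-3-3 sigma), a p53 target that holds cells in G2 and is made in stratified epithelium (chromosome 4, 133600556 to 133602168, minus strand). It had 58.1, 179.9 and 34.1 normalised reads in maternal BSp and 412 and 431 in control. The groups did not overlap, and the controls differed from each other by 1.05-fold against 5.27-fold among the maternal BSp libraries. The means were 90.7 ± 78.2 in maternal BSp and 421 ± 13.2 in control, with a log2 difference of -2.55 (SE 0.63). For Sfn the authors' deposited table gives an unadjusted p of 0.00109.

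Lgals7 encodes galectin-7, a sugar-binding protein of stratified epithelium (chromosome 7, 28863853 to 28866284, plus strand). Its values of 766, 174 and 370.4 normalised reads in maternal BSp and 641 and 347 in control followed another order than those of the keratins. The highest library and the lowest library were both maternal BSp, and replicate 3 was not the lowest. The means were 437 ± 302 in maternal BSp and 494 ± 208 in control, with a log2 difference of -0.36 (SE 0.61), which was 0.18 without maternal BSp replicate 2 and 0.08 without control replicate 1. Lgals7 was highest in the 2 libraries with the most salivary gland transcripts. Smr3a, a secreted salivary protein, had 1032 normalised reads in maternal BSp replicate 1 and 92 in control replicate 1, and at most 0.642 in the other 3 libraries. Without both of these libraries the log2 difference of Lgals7 was -0.45, and the part of salivary tissue in its level was not tested.

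Dsg3 encodes desmoglein 3, a desmosomal cadherin that joins basal cells of stratified epithelium (chromosome 18, 20510274 to 20547459, plus strand). It had 27.7, 77.6 and 2.33 normalised reads in maternal BSp and 38 and 15.3 in control. The groups overlapped, with both extremes in maternal BSp. The means were 35.9 ± 38.3 in maternal BSp and 26.6 ± 16.1 in control, while the log2 difference was -0.36 (SE 1.16), so the 2 scales disagree in sign. Without maternal BSp replicate 3 the log2 difference was 0.92 and without control replicate 1 it was 0.27.

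Of the 8 genes with a fitted difference, all 8 had a lower mean log2 value in maternal BSp, against 36.8% of the 9870 genes tested. In 4 of the 8 (Krt5, Krt6a, Krt17 and Sfn) every maternal BSp library lay below both controls, against 9.21% of all genes tested, and none lay above both, against 23.8%. As the genes were chosen with this difference in view, these shares describe them and carry no weight as evidence. The median log2 difference was -1.72 for the 8 genes and 0.21 for all genes tested. It was -0.76 without maternal BSp replicate 3. In that case the log2 differences of Krt5, Krt14, Krt6a, Krt17 and Sfn were -1.73, -0.63, -2.33, -0.89 and -2.03.

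**Figure D2:**
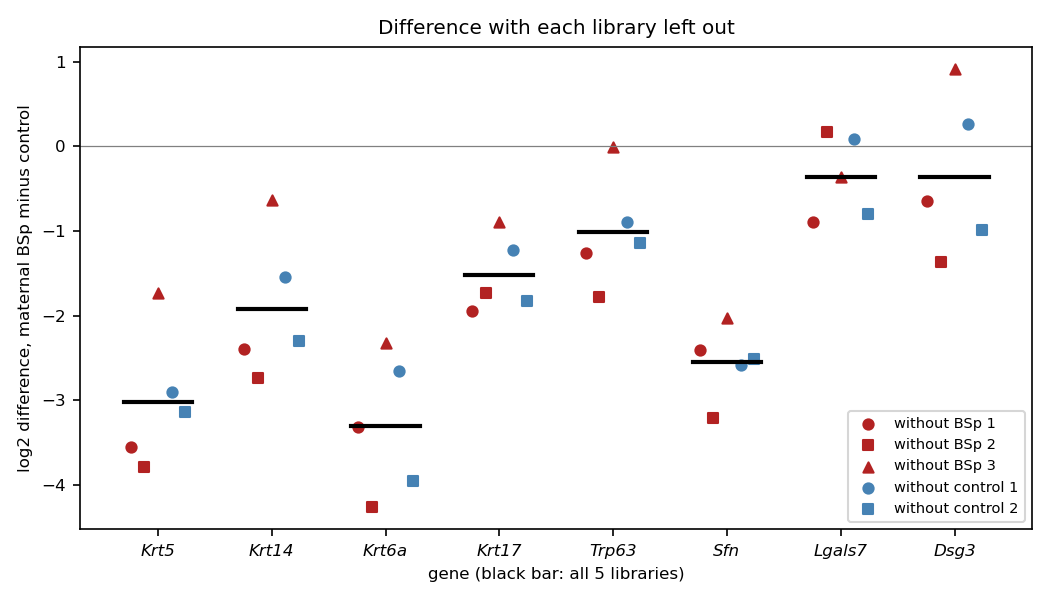
Log2 difference (y axis, maternal BSp minus control) of the 8 genes (x axis) with all 5 libraries (black bar) and with 1 library left out (symbols). Krt5, Krt14, Krt6a, Krt17 and Sfn lie below 0 in each case, Trp63 reaches -0.01 without maternal BSp replicate 3, and Lgals7 and Dsg3 change sign.

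Library profiles set maternal BSp replicate 3 apart. Taken as the median over the 8 genes of each gene's log2 value minus its own mean, maternal BSp replicates 1, 2 and 3 lay at 0.13, 0.46 and -2.56, and control replicates 1 and 2 at 1.36 and 0.69. Over all genes tested the same medians were -0.01, 0.35 and -0.05 in maternal BSp and -0.12 and -0.09 in control. Replicate 3 was the lowest of the 5 libraries for 7 of the 8 genes, against 23.6% of all genes tested. Related lists, described below, shared this in part. Replicate 3 was lowest for 8 of 10 cornified and suprabasal genes, 8 of 10 basal adhesion genes and 7 of 12 desmosome genes. The same held for 8 of 16 p63 partners and targets but for 1 of 5 simple keratins. Control replicate 1 was the highest for 4 of the 8, against 9.46%. It was also highest for 6 of 10 cornified and suprabasal genes and 5 of 7 myoepithelial genes, but for 0 of 12 desmosome genes.

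**Figure D3:**
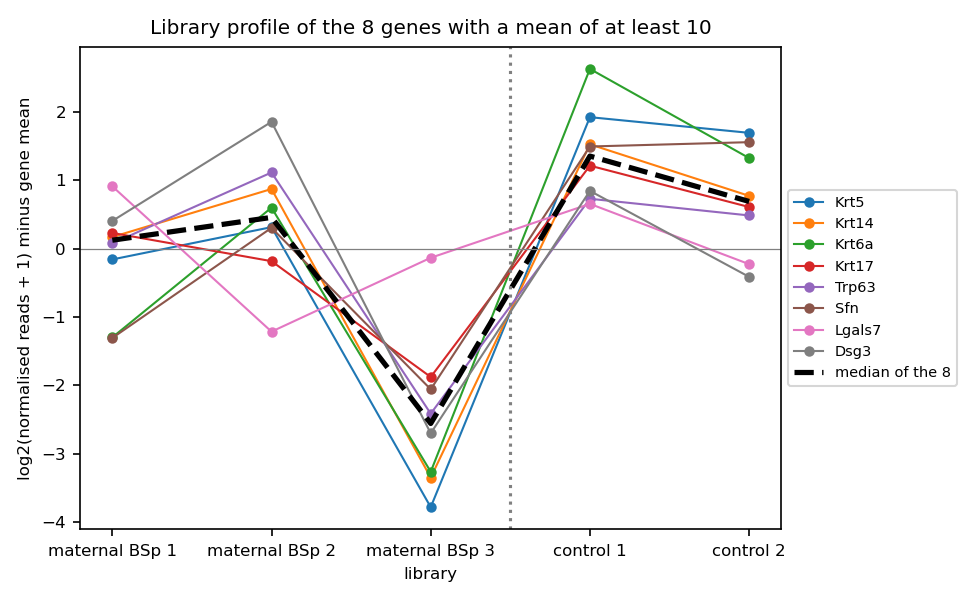
Log2(normalised reads + 1) minus the gene's mean over the 5 libraries (y axis) by library (x axis) for the 8 genes; each line joins the values of 1 gene and the dashed line is their median. The dashed line reaches -2.56 in maternal BSp replicate 3, where Lgals7 stays near 0.

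Krt8 and Krt18, unlike Krt5 and Krt14, had their highest or second highest value in maternal BSp replicate 3. Krt8, the luminal type II keratin, had 422, 735 and 900.3 normalised reads in maternal BSp and 749 and 1048 in control. Krt18, its type I partner, had 535, 530.4 and 1107 in maternal BSp and 567 and 796 in control. The ratio of Krt14 to Krt8 was 1.19, 1.12 and 0.0477 in maternal BSp and 1.73 and 0.731 in control. The groups thus overlapped, and the low ratio stood in 1 library. For Krt5 to Krt8 the ratio was 0.112, 0.0896 and 0.00321 in maternal BSp and 0.271 and 0.165 in control. Every maternal BSp ratio thus lay below both controls, as for 2.05% of 9869 genes set against Krt8. A further 30.9% had every maternal BSp ratio to Krt8 above both controls. Of 14 luminal markers, 7 had their lowest value in maternal BSp replicate 3, as did the ductal keratin Krt7. Among them, Wfdc2, a secreted protein, had 639.6, 431 and 119 in maternal BSp and 698 and 995 in control, and the tight junction gene Cldn4 had 259, 1306 and 116 in maternal BSp and 552 and 509.6 in control. Epcam, which mediates epithelial adhesion, had 2393, 1949 and 2306 in maternal BSp and 1756 and 2033 in control.

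Ratios between genes within a library do not depend on how libraries are scaled. The ratio of Krt5 to Krt14 was 0.0934, 0.0800 and 0.0673 in maternal BSp and 0.157 and 0.226 in control. All maternal BSp libraries, replicate 3 included, lay below both controls, with a spread of 0.24 in maternal BSp and 0.37 in control (SD of the log2 ratio, n = 3 and n = 2) around means that differ by -1.24. Of 9869 genes set against Krt14 in this way, 5 (0.0507%) had every maternal BSp ratio below both controls. Krt5 and Krt6a were 2 of them. Krt14 is itself lower in the mean of maternal BSp, and 59.2% of genes had every ratio to it above both controls.

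The ratio of Krt5 to Trp63 was 0.945, 0.636 and 0.36 in maternal BSp and 2.57 and 2.60 in control. That of Trp63 to Krt14 was 0.0989, 0.126 and 0.187 in maternal BSp and 0.0611 and 0.0868 in control. Relative to Trp63, Krt5 and Krt14 were thus both lower in every maternal BSp library than in either control. These ratios were looked at after the values were seen and come from the values that chose the genes, so no test is given. Among the 28 pairs of the genes with a fitted difference, 10 had a ratio without overlap between the groups. The share among pairs of all genes tested was not counted, so the 10 pairs cannot be read as particular to these genes. The ratio of Krt17 to Trp63 overlapped, as did those of Krt5 and Krt14 to Sfn. The share of all genes tested whose ratio to Trp63 did not overlap was not counted, so the ratios to Trp63 are a description only.

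Per kilobase of annotated exon, Krt17, Krt14, Lgals7 and Sfn were the 4 highest of the 10 genes in all 5 libraries. Krt17 had 502, 377 and 116 normalised reads per kilobase in maternal BSp and 995 and 654 in control, and Krt14 had 287, 468 and 24.4 in maternal BSp and 736 and 436 in control. Lgals7, by this measure, was the highest of the 10 genes in maternal BSp replicates 1 and 3, at 827 and 399.6. Trp63 stayed between 0.956 and 12.3 per kilobase in maternal BSp and between 7.93 and 9.41 in control. The summed type I keratins (Krt14, Krt15 and Krt17) exceeded the summed type II keratins (Krt5, Krt6a and Krt6b) per kilobase by 24.5, 12.1 and 38.1 times in maternal BSp and by 6.71 and 7.48 times in control. The excess was larger in each maternal BSp library than in either control. Type II partners outside the 10 genes, such as Krt8, are not in these sums.

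**Figure D4:**
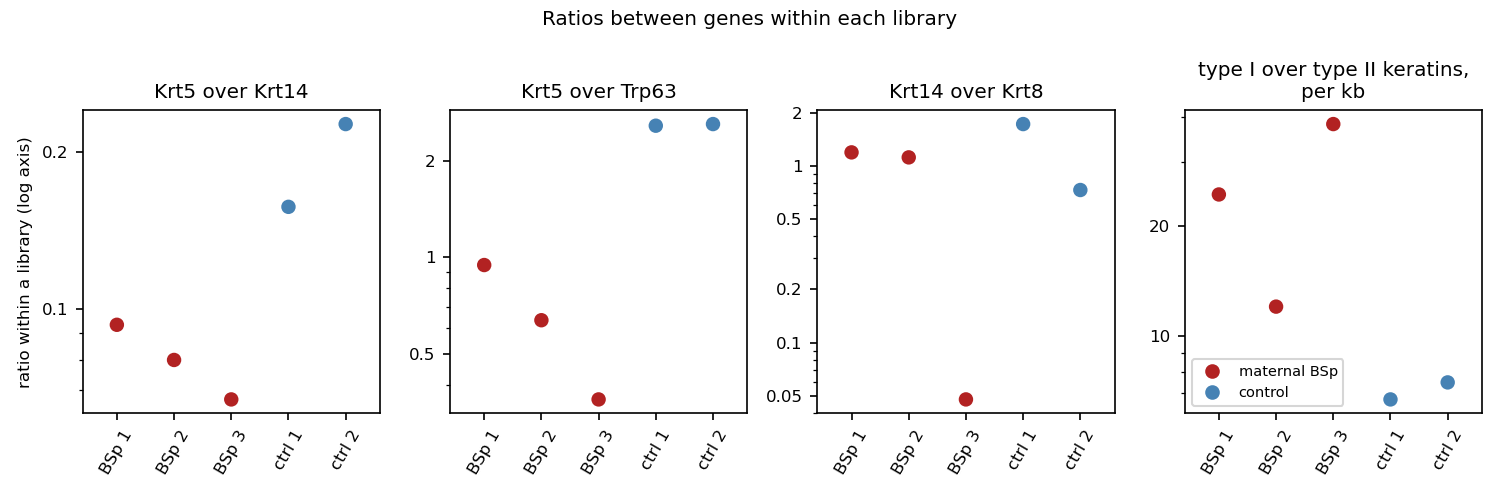
Ratios within each library (y axes, log scale) of Krt5 to Krt14, Krt5 to Trp63, Krt14 to Krt8, and of summed type I to type II keratins per kilobase, for the 3 maternal BSp and 2 control libraries (x axis). Krt5 to Trp63 is at most 0.945 in maternal BSp and at least 2.57 in control, whereas Krt14 to Krt8 overlaps and is 0.0477 in maternal BSp replicate 3.

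Genes related to these by role were set beside them from 6 lists. Limma with Benjamini-Hochberg adjustment called 0 of the 57 related genes whose mean reached 10 and 0 of all 9870 genes (0.0%). At an unadjusted p under 0.05, limma had 3 related genes higher and 4 lower in maternal BSp, against 8.01% and 3.14% of all genes tested, and edgeR had 7 in all with 0 called. Over all genes that split was 791 higher and 310 lower, and it was 425 higher and 633 lower with upper quartile scaling. DESeq2 called 2 related genes, Krt79 and Ly6d, both lower, and the related genes limma called with array weights include Fat2 and Ly6d, both lower, and Tfap2a, higher.

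With 1 library left out, the median log2 difference lay between -0.68 and -0.07 for simple keratins, -0.34 and 0.66 for desmosome genes, -1.30 and -0.18 for cornified and suprabasal genes, -1.18 and 0.04 for p63 partners and targets, and -1.01 and 0.01 for basal adhesion genes.

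Other keratins of stratified epithelium were scarce. Of 15 such genes present, 4 were tested, 1 higher and 3 lower, with a median log2 difference of -1.90. That median was -0.74 without control replicate 1, -2.68 without control replicate 2 and -0.45 without both libraries with salivary gland transcripts. Krt79, a type II keratin of hair follicle and gland ducts, had 4.45, 3.00 and 3.93 in maternal BSp and 44 and 13.3 in control, a log2 difference of -2.42 (SE 0.72, limma adjusted p 0.407). Krt75, a follicle keratin, had 2.09, 40.5 and 0.882 in maternal BSp and 118 and 10.2 in control. Krt16, a type I keratin induced together with Krt6, had 4.97, 16.5 and 1.85 in maternal BSp and 28 and 9.34 in control. For Krt75 and Krt16 the groups overlapped. Krt1, the type II keratin of suprabasal epidermis, reached at most 0.269 in any library, and its partner Krt10 lay between 5.04 and 10.6 in maternal BSp and between 8.21 and 12 in control.

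Simple epithelial keratins were tested in 5 of 6 genes, 1 higher and 4 lower, with a median of -0.44. Krt7, a type II keratin of ducts, had 992, 592 and 346 in maternal BSp and 1293 and 1155 in control, a log2 difference of -1.05 (SE 0.48, limma adjusted p 0.456). Krt23 and Krt8 had log2 differences of -0.99 (SE 0.92) and -0.44 (SE 0.44).

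Desmosome genes showed no shared direction, with 8 of 12 tested higher, 4 lower, and a median of 0.20, close to that of all genes. The median turned to -0.03 with upper quartile scaling and to -0.34 without maternal BSp replicate 2. Dsg2, the desmoglein of simple epithelia, had a log2 difference of 0.67 (SE 0.41, limma adjusted p 0.539), the envelope protein Evpl -0.83 (SE 0.55) and the plakophilin Pkp2 0.52 (SE 0.39). Dsc3, the desmocollin of basal cells, had 6.41, 34.7 and 1.60 in maternal BSp and 9 and 5.95 in control. Perp, a p63 target of the desmosome, had 425, 1018 and 228 in maternal BSp and 439 and 361 in control. Jup, which encodes plakoglobin, had 327, 889 and 289 in maternal BSp and 393 and 375 in control. Maternal BSp replicate 2 was the highest library for all 12 desmosome genes, which was so for 2 of the 8 genes described here, Trp63 and Dsg3. The share of all genes tested with this library highest was not counted. Their median log2 value minus the gene's own mean was also highest in this library, at 0.35, against 1.15 for the desmosome genes.

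Of the cornified envelope and suprabasal genes, 25 were in the table, 10 were tested, 1 was higher and 9 were lower, with a median of -0.70. It was -0.18 without maternal BSp replicate 3. Ly6d, a surface protein of stratified epithelium, had 120.1, 353 and 179.6 in maternal BSp and 933 and 410.5 in control, a log2 difference of -1.65 (SE 0.55, limma adjusted p 0.407). The surface protein Lypd3 and the secreted Dmkn had -1.25 (SE 0.50, limma adjusted p 0.429) and -1.57 (SE 0.95, limma adjusted p 0.536). Some genes of this list were at or near 0: Flg2, Sprr2d, Sprr3 and Cnfn were listed at 0 in all 5 libraries, and Ivl, Flg and Krtdap did not exceed 0.393. Others were not: Sprr1a lay between 2.03 and 5.50 in maternal BSp and between 2.26 and 6 in control. Tgm1 lay between 12.4 and 46.3 in maternal BSp and between 25 and 41.0 in control. Sbsn had 162, 432 and 23.2 in maternal BSp and 354 and 81.3 in control.

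Partners and targets of p63 were tested in 16 of 20 genes, 6 higher and 10 lower, with a median of -0.62 that was 0.04 without maternal BSp replicate 3. Fat2, a large cadherin, had 5.23, 13.6 and 1.60 in maternal BSp and 38 and 25.5 in control, a log2 difference of -2.38 (SE 0.78, limma adjusted p 0.407). Grhl2, a grainyhead factor of epithelial cells, was higher, with 55.1, 105 and 91.2 in maternal BSp and 30 and 26.0 in control (log2 difference 1.499, SE 0.39, limma adjusted p 0.407). Tfap2a, the transcription factor AP-2 alpha, had 132, 113 and 72.8 in maternal BSp and 59 and 39.6 in control (log2 difference 1.07, SE 0.39, limma adjusted p 0.418). In these 3 genes the groups did not overlap. Cdkn1a, the cell cycle inhibitor p21, had 106, 328 and 46.5 in maternal BSp and 260.0 and 176 in control, with overlap.

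Basal adhesion genes were all tested, 3 higher and 7 lower, with a median of -0.32, and 0.01 without maternal BSp replicate 3. Col17a1, the hemidesmosomal collagen, had 31.4, 49.1 and 1.12 in maternal BSp and 65 and 30.6 in control, with its low value in replicate 3 as for Krt5. Itga6, the basal integrin subunit, had 86.6, 82.0 and 129 in maternal BSp and 59 and 40.8 in control (log2 difference 0.97, SE 0.37, limma adjusted p 0.426), and its highest value stood in replicate 3. Plec, which anchors keratins to hemidesmosomes, had a log2 difference of -0.87 (SE 0.41, limma adjusted p 0.457) and Lamb3, a laminin-332 chain, -0.71 (SE 0.48, limma adjusted p 0.568).

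**Figure D5:**
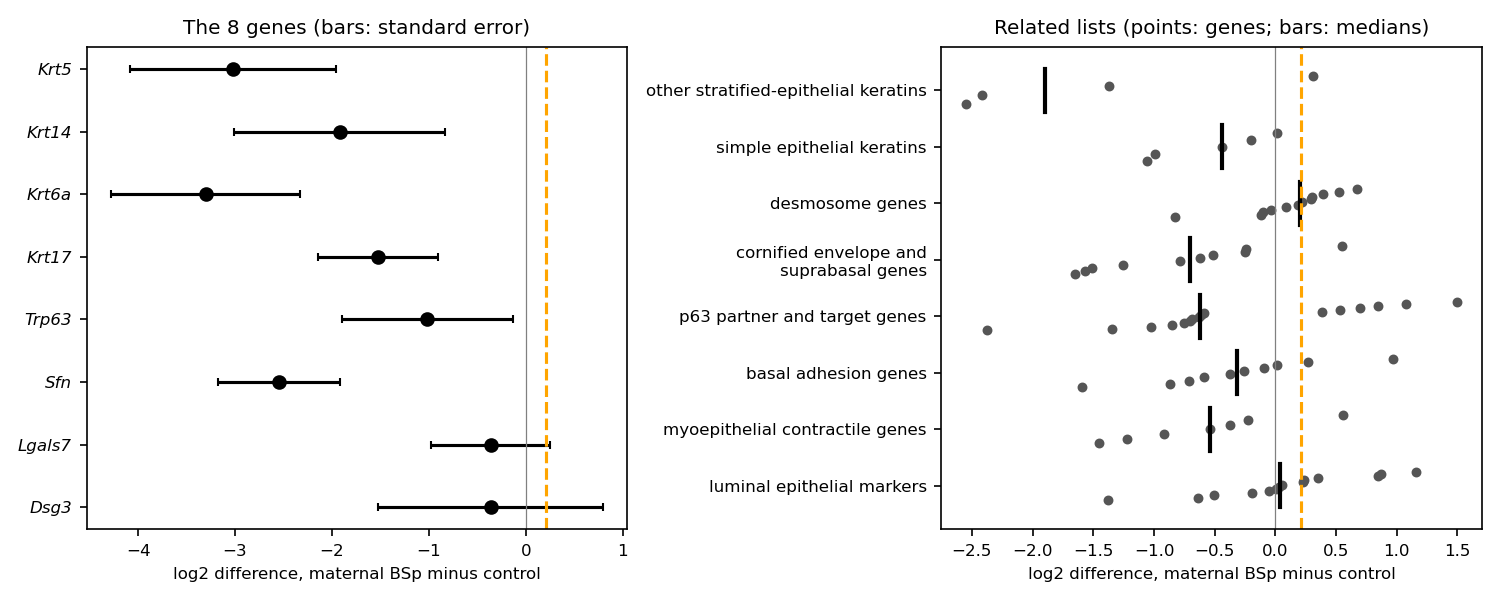
Log2 difference (x axes, maternal BSp minus control) of the 8 genes with standard errors (left) and of the tested genes of 8 related or marker lists (right; points are genes and black bars medians). The dashed line is the median of all genes tested, 0.21, and the 8 genes lie below it.

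Markers of other cells gave the following values in the same libraries. Of 10 contractile genes of myoepithelial cells, which also carry Krt5 and Krt14, 7 were tested, 1 higher and 6 lower, with summed values of 245 to 837 in maternal BSp and 793 to 1267 in control. Among the defining ones, Oxtr did not exceed 3.27 in maternal BSp and was listed at 0 for both controls, and Myh11 did not exceed 2.36. Cnn1, the calponin of contractile cells, had a mean below 10, with 4.97, 2.98 and 1.44 in maternal BSp and 12 and 10.5 in control, without overlap, and the authors' deposited table lists it with an unadjusted p of 0.0384. Acta2, smooth muscle actin, had 26.4, 16.3 and 23.99 in maternal BSp and 51 and 34.8 in control (log2 difference -0.92, SE 0.40, limma adjusted p 0.444), without overlap between the groups and with no low value in replicate 3. Tpm2 and Tagln, both of the contractile apparatus, had log2 differences of -1.45 (SE 0.76) and -1.22 (SE 0.62), with overlap between the groups. Of the 7 tested, 1 had all maternal BSp libraries below both controls. The median log2 difference of the 7 was -0.54. It was -0.04 without control replicate 1 and 0.0005 without both libraries with salivary gland transcripts.

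Luminal markers were tested in 14 of 14 genes, 9 higher and 5 lower, with a median of 0.04 that was -0.19 with upper quartile scaling, and summed values of 4845 to 7974 in maternal BSp and 5745 to 6494 in control. Hair follicle and cornified skin markers were tested in 2 of 15 genes, Hr and Tchh, and summed to 43.6 to 426 in maternal BSp and 237 to 355 in control. Most of these sums came from Hr, with 223, 409 and 30.1 in maternal BSp and 333 and 221 in control. Krt27 and Krt31 were listed at 0 throughout, and the other hair keratins of this list did not exceed 0.359. The follicle keratins Krt75 and Krt79, placed in another list above, reached 118 and 44 in control replicate 1. Salivary gland markers summed to 2488, 17.2 and 490.2 in maternal BSp and 728 and 52.4 in control, where 479 of the 490.2 in maternal BSp replicate 3 came from Aqp5, a water channel of several glands. Skeletal muscle markers summed to 7.46 to 56.8 in maternal BSp and 31 to 41.9 in control, and adipocyte markers to 34.5 to 69.9 in maternal BSp and 8.49 to 64 in control. Fibroblast markers summed to 398 to 2775 in maternal BSp and 767 to 1762 in control, lowest in maternal BSp replicate 3. Macrophage markers summed to 658 to 1551 in maternal BSp and 1110.0 to 1158 in control, and endothelial markers to 109 to 151 in maternal BSp and 156 to 247 in control. Much of the endothelial sum came from Flt1, with 41.9, 72.4 and 16.0 in maternal BSp and 151 and 82.7 in control. Of the 6 endothelial markers tested, 4 were higher and 2 lower in maternal BSp, with a median log2 difference of 0.22. Lymphocyte markers summed to at most 58.5 in maternal BSp and 7.93 in control. The part of these cells in the levels of the 10 genes was not tested.

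The genes whose profile over the 5 libraries was most like the median of the 8 were Nbl1, Aqp3, Tgfbi, Dab1, Sdr16c5, Col8a1, Itga7, Spink5, Pappa and Bmp2. Likeness was the mean absolute difference of the centred log2 values, which ran from 0.16 for Nbl1 to 0.28 for Bmp2, against a median of 1.12 over all genes tested. On this measure Krt14, Krt17 and Trp63 lay at 0.30, 0.33 and 0.34, and Lgals7 at 1.30 was the least alike of the 8. Nbl1, a secreted BMP antagonist, had 95.1, 84.4 and 10.9 normalised reads in maternal BSp and 205 and 113 in control. Aqp3, a water and glycerol channel of basal epithelial cells, had 14.8, 13.4 and 1.68 in maternal BSp and 36 and 25.8 in control. Spink5, a protease inhibitor of stratified epithelium, had 12.04, 16.9 and 1.36 in maternal BSp and 41 and 11.3 in control. Both Nbl1 and Aqp3 had their 3 maternal BSp libraries below both controls, while Spink5 overlapped. The median profile that these genes were chosen to match has every maternal BSp library below both controls. Their order of libraries thus follows from the choice and carries no weight as evidence.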

How the data were processed

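The submitters' processing notes name STAR, DESeq, Trim Galore, cutadapt and FastQC, and the builds mm10 and GRCm38. Counter, gene models and strand use are not given in any source used here, so antisense neighbours of Krt5, Krt6a, Krt6b, Trp63 and Lgals7 are uncertain. Per the labels' protocols, a strand-specific kit took RNA of integrity 7.0 or above. The deposited signal is the authors' scaled read number of each gene, with control replicate 1 as the common total. Whole reads were recovered for 100% of values above 0, within 0.1 read. The second table holds the authors' deposited group means (signal) and unadjusted p-values. Replicate numbers follow the labels' description. The labels do not say that libraries are separate animals, so a p-value measures spread between libraries, which may be technical.

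Limma 3.58.1 (trend, no covariate, R 4.3.3) was fitted to log2(value + 1) of the 9870 genes whose mean reached 10, and p-values were adjusted by Benjamini-Hochberg (threshold 0.05). edgeR 4.0.16 and DESeq2 1.42.0 on recovered reads were alternatives, beside other pseudocounts, filters, scalings, array weights, replicate blocks and each library left out. The steps were tested on simulated data. The genes and lists were chosen with earlier results of these data known. Named related genes are the 3 of each related or myoepithelial list with the smallest p, others by mean level, and markers near 0. Krt10, Dsc3, Col17a1, Cnn1, Cldn4, Smr3a, Flt1, Tgm1 and Sprr1a were chosen after their values were seen. Like genes are the 10 with the smallest likeness distance and a mean of at least 10. Some genes that this rule names are not reported here. Other marker lists are given as counts and sums. Gene positions and exon lengths come from GENCODE M21 (GRCm38), which names 35529 of the 38918 features.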

Additional observations from a re-analysis of the deposited data

How the results depend on the processing

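Over 20 alternatives, Krt5, Krt14, Krt6a, Krt17, Trp63 and Sfn had a lower mean log2 value in maternal BSp each time, with log2 differences that reached -1.73, -0.63, -2.33, -0.89, -0.01 and -2.03 at their highest. Lgals7 lay between -0.89 and 0.38 and Dsg3, over the 19 that fitted it, between -1.37 and 0.92. The median of the 8 genes lay between -2.26 and -0.76 with 1 library left out, and 6 (without control replicate 1) to 8 of the genes were lower. With other scalings it was -1.95 to -1.74, while the median of all genes was 0.03 with median-of-ratios and -0.01 with upper quartile scaling. Limma called 0 genes in all, but 699 with array weights, of which 4 were related genes, and 1 without maternal BSp replicate 3, against 0 without each other library. DESeq2 called 100, of which 2 were related. A replicate block by the numbers in the description called 23 genes, with a median of -0.76 for the 8 genes, and a block by the numbers in the title called 0, with -2.17. In each block the unpaired maternal BSp library adds nothing to the difference. No label says that the numbers pair the libraries, and same-numbered libraries deviated together with r = 0.094 and -0.092 (description) or 0.092 and 0.16 (title) across genes. Leaving out both libraries with salivary transcripts, chosen after seeing the data, gave -1.83. The cause of these changes was not tested. Depth limits Krt6b and Krt15, and 5 libraries limit the rest.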
